A study of Mus musculus with 2 samples.

Results

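The Notch pathway was examined as 34 genes chosen by name: receptors, ligands, Fringe enzymes, cleavage proteases, the nuclear complex, modifiers of the receptor, and Hes and Hey transcription factors. Each symbol matched 1 of the 43346 gene rows through its gene ID, so 34 of 34 members were found. The data were total RNA-seq of whole neural tube (brain and spinal cord originate from this structure) from 2 pups of the mouse strain B6NCrl on the day of birth. Each pup gave 1 tube and 1 library, both pups came from 1 litter, no treatment or allele is named, and sex was not recorded. The pups form 1 group with n = 2, so there was no contrast between conditions, no p-value was computed, and the spread between the pups covers litter mates only.

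Notch proteins are receptors on the cell surface that are activated by ligands on a neighbouring cell. Binding exposes the receptor to an ADAM protease and then to the gamma-secretase complex, which frees the intracellular domain to enter the nucleus, join the DNA-binding protein RBPJ and a Mastermind coactivator, and switch on Hes and Hey repressor genes. In the developing nervous system the pathway is known for keeping progenitor cells from becoming neurons and for favouring glial fates, and in blood vessels it takes part in sprouting and in the maturation of the vessel wall.

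The libraries held 26916916 expected counts in pup 1 and 40003518 in pup 2 (the authors' estimated read numbers). Levels are given as TPM, transcript abundance corrected for length and scaled within each library, and as mean ± SD over the pups. The tissue label was checked against marker lists. All 6 neuronal, all 7 progenitor and radial glial, and all 5 astrocyte markers were detected, meaning at least 1 TPM in both pups, and so were all 10 endothelial and 7 of 8 mural cell markers. The summed level of the sensory ganglion list was 101 TPM in pup 1 and 161 TPM in pup 2, and that of meningeal and fibroblast genes was 1345 and 2718 TPM. In the meningeal list 1 of 5 genes passed 2-fold, Ptgds, at 922 TPM in pup 1 and 2190.4 TPM in pup 2, and the other 4 had log2 ratios of pup 2 to pup 1 from 0.37 to 0.52.

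All 34 members were detected in both pups, against 35.5% of all gene rows and 63.8% of the 21474 protein-coding genes. The members' median level was 11.8 TPM, below the median of 17.7 TPM over the 13698 detected protein-coding genes, and 13 of 34 members stood above that median. Mean levels ran from 1.59 TPM for Maml1 to 249 TPM for Dner. The leading gene held from 32.6% (receptors) to 86.8% (ligands) of a role's summed TPM in pup 1, and the same gene led in both pups in 6 of the 7 roles. Of 27 pairs of neighbours in the order of levels within a role, 23 kept their order in both pups. Deposited TPM intervals did not overlap in either pup for 20 of the 27. These 20 include Notch1 and Notch2, whose TPM order differed between the pups, because the intervals belong to another estimate, the posterior mean.

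**Figure D1:**
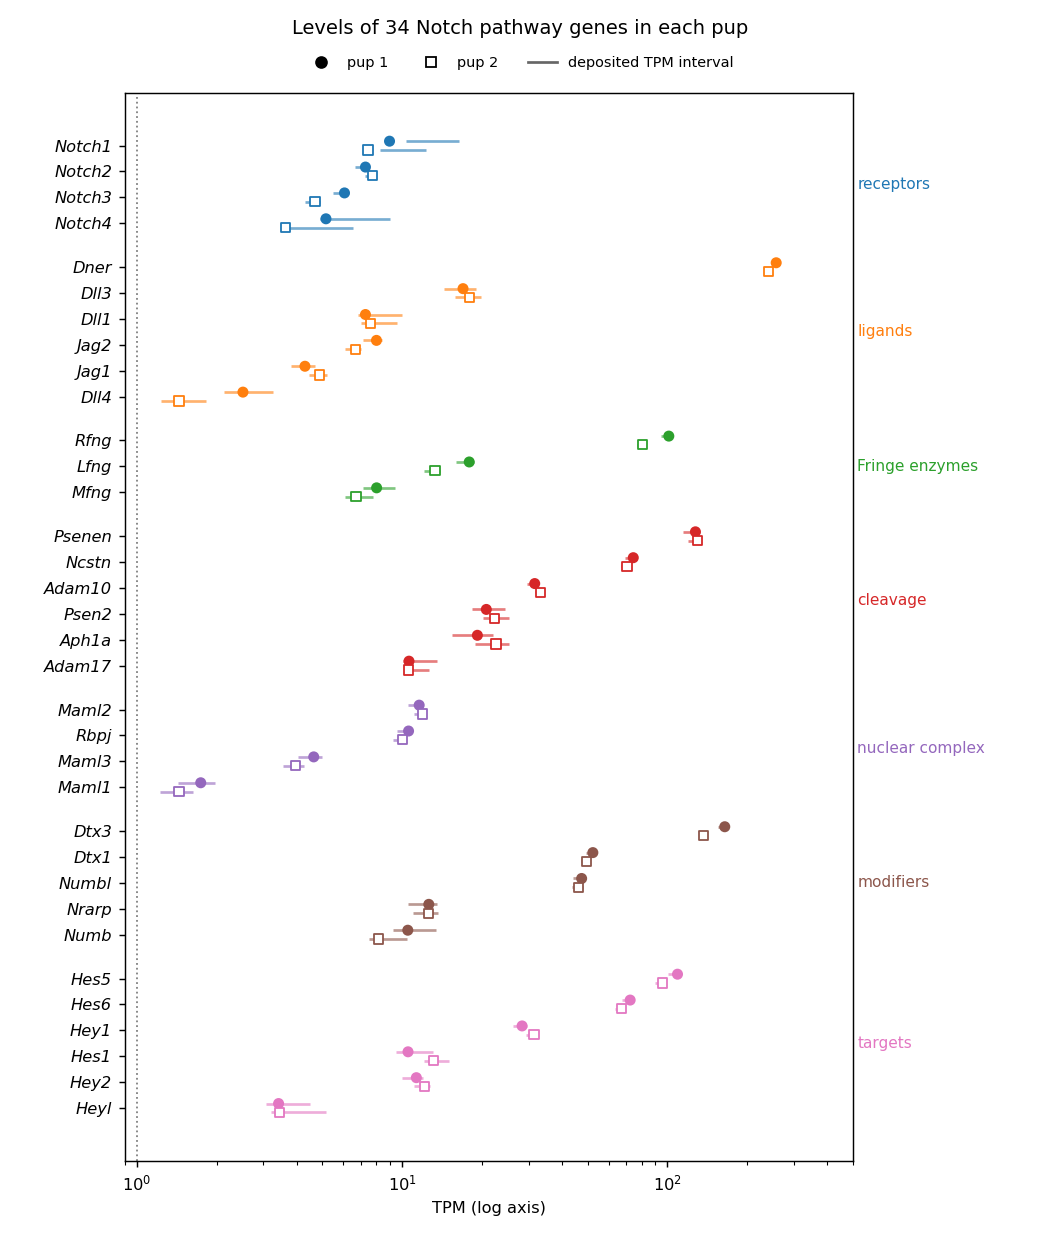
TPM of the 34 Notch pathway genes on a log axis, grouped by role and ordered by mean level, with a filled circle for pup 1, an open square for pup 2 and a line for the deposited TPM interval. Dner is the highest at 257 TPM in pup 1 and 240.3 TPM in pup 2, the 4 receptors lie between 3.62 and 8.96 TPM, and the intervals of Notch1 lie above its plotted TPM because they belong to the posterior mean estimate.

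The 4 receptors were all present below the median of detected coding genes, with summed TPM of 27.4 in pup 1 and 23.5 in pup 2. Notch1, the receptor best known in neural progenitors, stood at 8.96 TPM in pup 1 and 7.43 TPM in pup 2. Notch2, also found in progenitors and glia, stood at 7.27 TPM in pup 1 and 7.73 TPM in pup 2. The order of these receptors therefore differed between the pups, and their ratio was 1.1 ± 0.192. The deposited interval of Notch1 was 10.3 to 16.3 TPM in pup 1 and 8.24 to 12.3 TPM in pup 2, around a posterior mean of 13.1 and 10.1 TPM. Thus the authors' other estimate of the same reads put Notch1 above Notch2 in both pups, with a ratio of 1.6, whereas the ratio of counts was 0.93. By the posterior mean the coding model Notch1-201 took 61.3% and 64.2% of Notch1, against 92.9% and 89.7% by the listed TPM. Part of the remainder was on short processed transcripts listed at 0 TPM in both pups, such as Notch1-208, at 7.40% and 6.27%. By the listed TPM, coding transcripts alone gave Notch1 8.32 TPM in pup 1 and 6.67 TPM in pup 2. Exons of 0610009E02Rik cover 7.5% of the Notch1 exon bases, and the strand setting of the counting is not given in the sources used here.

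Notch3, a receptor of vascular mural cells that progenitors also express, was listed at 6.06 TPM in pup 1 and 4.69 TPM in pup 2. Notch4, a receptor mainly of endothelium, was at 5.16 TPM in pup 1 and 3.62 TPM in pup 2. The ratio of Notch3 to Notch4 was 1.24 ± 0.0857 by TPM, but the posterior mean turned this order in both pups, with Notch3 at 5.87 and 4.6 TPM, Notch4 at 6.94 and 5.05 TPM and a ratio of 0.878, and their intervals overlapped. The order of Notch3 and Notch4 was therefore not resolved by gene-level TPM. By counts, which are not divided by length, Notch3 had 4.31 times the counts of Notch4. The Notch4 level rested largely on a short transcript: Notch4-210, a processed transcript of 619 bases with no annotated coding sequence, took 59.6% of Notch4 TPM in pup 1 and 41.0% in pup 2. The coding model Notch4-201, of 6591 bases, took 23.1% and 38.2%. Coding transcripts alone gave Notch4 1.19 TPM in pup 1 and 1.38 TPM in pup 2, so the gene-level TPM was lower in pup 2 while the coding level was not. These coding levels lay below Notch3, whose TPM of 6.06 in pup 1 and 4.69 in pup 2 was all on a coding transcript. The scaled count of Notch4 gave a log2 ratio of pup 2 to pup 1 of 0.12 (95% counting interval -0.16 to 0.41).

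Among the 6 ligands the level was concentrated in Dner, a neuronal transmembrane protein with EGF repeats that has been proposed as a non-canonical Notch ligand. Dner (chromosome 1, 84369839 to 84696221, minus strand, GRCm38) stood at 257 TPM in pup 1 and 240.3 TPM in pup 2, or 249 ± 11.9 TPM. That was 86.8% and 86.2% of the summed ligand TPM, and higher than 95.8% of detected protein-coding genes. Dll3 came next at 16.96 TPM in pup 1 and 17.9 TPM in pup 2. It is a divergent Delta protein that is held largely inside the cell and inhibits Notch in its own cell. Dner stood at 14.3 ± 1.23 times the level of Dll3, and their intervals did not overlap. The TPM of Dner lay just above its own deposited interval in each pup, 246 to 254 and 233 to 239 TPM.

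Dll1, the Delta ligand of differentiating neural cells, was at 7.27 TPM in pup 1 and 7.57 TPM in pup 2. Jag2, a Jagged ligand found in motor neurons among other cells, was at 8.0 TPM in pup 1 and 6.67 TPM in pup 2. These neighbours changed order between the pups, with a ratio of 1.02 ± 0.16, and their intervals overlapped. Jag1, a ligand of progenitor domains and vessels, was at 4.3 TPM in pup 1 and 4.88 TPM in pup 2, and the ratio of Dll1 to Jag1 was 1.62 ± 0.0986. Dll4, the ligand of sprouting endothelium and of some spinal interneuron progenitors, was the lowest at 2.51 TPM in pup 1 and 1.44 TPM in pup 2. The ratio of Jag1 to Dll4 varied widely, at 1.71 in pup 1 and 3.39 in pup 2, but the order was the same in both. Retained-intron transcript Dll3-202 took 33.2% and 40.6% of Dll3 TPM, so coding transcripts gave Dll3 10.3 TPM in pup 1 and 10.2 TPM in pup 2, which was still above Dll1. Exons of A930024N18Rik cover 20.5% of the Dll1 exon bases, so the Dll1 level may include its reads.

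The Fringe enzymes extend sugars on Notch and so alter its response to Delta and Jagged ligands. Rfng was listed at 101 TPM in pup 1 and 80.6 TPM in pup 2. It held 79.6% and 80.1% of the summed Fringe TPM. Lfng, the family member with restricted domains in the embryonic neural tube, was at 17.9 TPM in pup 1 and 13.3 TPM in pup 2. Mfng, a Fringe of newly formed neurons and of blood vessels and lymphocytes, was at 8.01 TPM in pup 1 and 6.7 TPM in pup 2. Rfng stood at 5.86 ± 0.289 times the level of Lfng, and Lfng stood at 2.11 ± 0.178 times the level of Mfng, an order that both pups shared. All 3 were lower in TPM in pup 2.

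Of the proteases, Adam10, which makes the ligand-dependent cut in Notch, was at 31.6 TPM in pup 1 and 33.2 TPM in pup 2. Adam17, a related sheddase, was at 10.6 TPM in pup 1 and 10.6 TPM in pup 2. Adam10 stood at 3.06 ± 0.116 times the level of Adam17. In the gamma-secretase complex, Psenen, the small subunit that completes its maturation, was highest at 128 TPM in pup 1 and 129.7 TPM in pup 2. Ncstn, the large glycoprotein that screens substrates, was at 74.3 TPM in pup 1 and 70.4 TPM in pup 2. Psen2, a catalytic presenilin, was at 20.8 TPM in pup 1 and 22.4 TPM in pup 2. Aph1a, the scaffold subunit, was at 19.2 TPM in pup 1 and 22.6 TPM in pup 2.

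Thus the subunits of this protease differed several-fold in transcript level per length. Psenen stood at 1.78 ± 0.0893 times the level of Ncstn by TPM but had 0.380 times the counts of Ncstn, as counts are not divided by length, and 9.33% of its exon bases are shared with U2af1l4. Psen2 and Aph1a changed order between the pups, at a ratio of 1.04 ± 0.0639 with overlapping intervals. The coding model Aph1a-202 took 19.6% of Aph1a TPM in pup 1 and 30.6% in pup 2, with Aph1a-201 as the remainder in each. Exons of Car14 cover 12.9% of the Aph1a exon bases.

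The nuclear complex was near the level of the receptors, with summed TPM of 28.5 and 27.4. Maml2, a Mastermind coactivator, was at 11.6 TPM in pup 1 and 11.9 TPM in pup 2. Rbpj, the DNA-binding partner through which the pathway acts, was at 10.6 TPM in pup 1 and 10.0 TPM in pup 2. The ratio of Maml2 to Rbpj was 1.14 ± 0.0681, an order shared by both pups. Maml3 was at 4.64 TPM in pup 1 and 3.97 TPM in pup 2, and Maml1 was the lowest of all members at 1.74 TPM in pup 1 and 1.44 TPM in pup 2. Maml1 was also the 1 member of 27 with several transcripts whose leading transcript differed: Maml1-202 led with 59.3% in pup 1, and Maml1-201 with 52.0% in pup 2, both coding.

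The modifiers were led by Dtx3, a ubiquitin ligase of the Deltex family, at 165 TPM in pup 1 and 137 TPM in pup 2. Dtx1, the Deltex ligase that binds the Notch intracellular domain, was at 52.4 TPM in pup 1 and 49.6 TPM in pup 2. Retained-intron transcript Dtx1-204 took 31.4% and 28.6% of Dtx1 TPM. Numbl, a Numb-like adaptor of neurons and progenitors, was at 47.5 TPM in pup 1 and 46.3 TPM in pup 2. Dtx1 stood at 1.09 ± 0.022 times the level of Numbl, a narrow gap next to the ratio of 2.95 ± 0.269 between Dtx3 and Dtx1. The intervals of Dtx1 and Numbl overlapped in pup 2. The posterior mean and the counts, at a ratio of 1.37, kept Dtx1 above Numbl. Coding transcripts alone turned this order in both pups, with means of 31.7 TPM for Dtx1 and 43.5 TPM for Numbl. The order of Dtx1 and Numbl thus depended on which transcripts were included. Nrarp, a small ankyrin-repeat inhibitor of the intracellular domain that is itself a Notch target, was at 12.6 TPM in pup 1 and 12.6 TPM in pup 2, although exons of the antisense gene Gm38287 cover 79.4% of its exon bases. Gm38287 was listed at 1.41 and 2.12 TPM, and without a known strand setting reads of the pair cannot be told apart.

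Numb (chromosome 12, 83794034 to 83921934, minus strand), the endocytic adaptor that is handed to 1 daughter of a dividing cell and limits Notch there, was the lowest modifier at 10.5 TPM in pup 1 and 8.15 TPM in pup 2. Its transcripts differ in 2 alternative coding exons, of 33 and 147 bases, which lengthen the phosphotyrosine-binding domain and the proline-rich region of the protein. The exons are shown because the forms are told apart by them. Capitals mark the alternative exon, and the 12 bases on each side belong to the neighbouring exons of the spliced transcript, read from GENCODE M21 transcripts on the minus strand. The 33-base exon lies at chr12:83825259-83825291 and the 147-base exon at chr12:83797197-83797343 (GRCm38).
Numb 33-base exon: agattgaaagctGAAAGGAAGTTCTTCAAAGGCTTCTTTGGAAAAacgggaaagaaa
Numb 147-base exon: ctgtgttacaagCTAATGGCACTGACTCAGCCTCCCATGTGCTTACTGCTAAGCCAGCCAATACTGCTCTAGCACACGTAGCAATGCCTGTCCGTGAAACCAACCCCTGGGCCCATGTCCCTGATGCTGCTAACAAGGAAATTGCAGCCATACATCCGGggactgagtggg

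Most of the Numb TPM was on transcript models with neither exon, of which only Numb-204 is a complete coding form. Numb-204, a coding model of 593 codons that lacks both exons, took 54.3% of Numb TPM in pup 1 and 54.5% in pup 2. Numb-205, a retained-intron transcript of 441 bases with no annotated coding sequence, took 34.03% and 35.98%. The 5 models with the 33-base exon together took 9.26% in pup 1 and 9.56% in pup 2. In pup 1 this was Numb-208, whereas in pup 2 it was Numb-202 and Numb-211, so the sum was alike but the transcripts behind it were not.

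The 4 models with the 147-base exon took 2.40% in pup 1 and 6.90% in pup 2, all of it on transcripts annotated for nonsense-mediated decay. The share in pup 2 was that of Numb-202, which holds both exons and so counts in both sums. The 3 complete coding models that hold an alternative exon, Numb-201 (604 codons), Numb-207 (653 codons) and Numb-210 (642 codons), were each listed at 0 in both pups. Their models run only from start to stop codon, while Numb-204 also has 1767 untranslated bases, and the part of this difference in the shares was not tested. By the posterior mean estimate the shares were 12.6% and 13.5% with the 33-base exon, and 7.30% and 7.76% with the 147-base exon. The same estimate gave Numb-204 44.1% and 46.9%, and Numb-205 27.6% and 28.9%. Numb had 384 counts in pup 1 and 488 in pup 2, spread over all these transcripts.

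**Figure D2:**
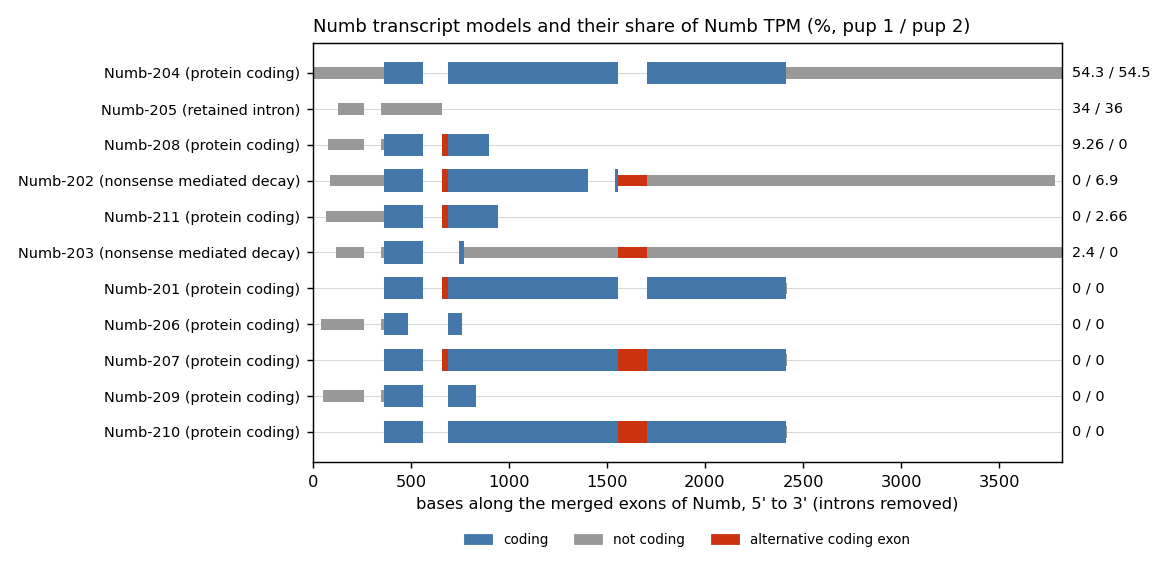
Exon structure of the Numb transcript models, 5′ to 3′ with introns removed, with coding bases in blue, other bases in grey and the 33-base and 147-base exons in red; the numbers at the right are each model's share of Numb TPM in percent, pup 1 and then pup 2. Numb-204, without either red exon, has the highest share at 54.3% and 54.5%.

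Across the members, coding transcripts led in both pups for 33 of 34, with Notch4 as the exception, against 90.9% of detected protein-coding genes. The leading transcript was the same in both pups for 26 of 27 members with several transcripts, against 90.4% of 9946 detected coding genes with several. Coding transcripts took under 75% of TPM in both pups for 4 members, Notch4, Dll3, Numb and Dtx1, or 11.8% of the members against 18.0% of detected coding genes. Next in order of the coding share in pup 1 came Psen2, with 69.4% and 75.1%, Rfng, in which the processed transcript Rfng-202 took 28.4% and 24.5%, and Dll1, whose coding share was 76.2% and 71.1%.

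**Figure D3:**
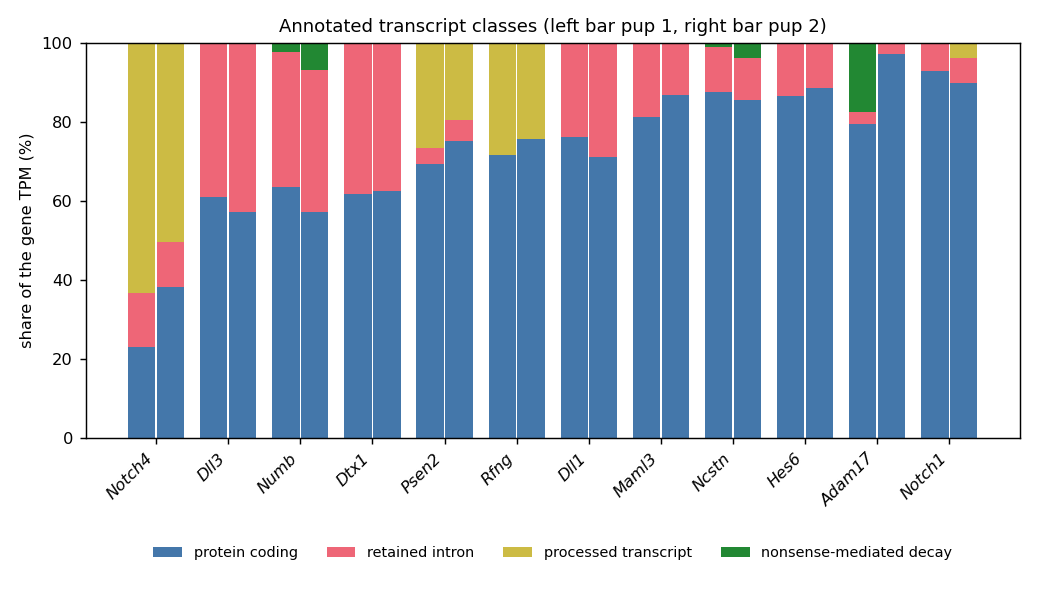
Share of gene TPM in percent by annotated transcript class, for members with a coding share under 90% in at least 1 pup (left bar pup 1, right bar pup 2). Notch4 has the lowest coding share, and the non-coding part of Dll3 and Dtx1 is retained-intron sequence, with Dll3-202 at 33.2% and 40.6% and Dtx1-204 at 31.4% and 28.6%.

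Of the Hes and Hey repressors, Hes5 (chromosome 4, 154960923 to 154962371, plus strand), the Notch target typical of neural progenitors and glia, was the highest at 109 TPM in pup 1 and 95.5 TPM in pup 2. Hes6, an atypical member that opposes Hes1 and favours neuronal differentiation, was at 72.4 TPM in pup 1 and 67.2 TPM in pup 2. Hes5 stood at 1.46 ± 0.0617 times the level of Hes6. Hey1, a target in progenitors and arteries, was at 28.3 TPM in pup 1 and 31.4 TPM in pup 2. Hey2, known from arteries, heart and cochlea, was at 11.3 TPM in pup 1 and 12.2 TPM in pup 2. Hes1, the target shared by many tissues, was at 10.5 TPM in pup 1 and 13.2 TPM in pup 2, and its order against Hey2 differed between the pups at a ratio of 1.01 ± 0.108. Heyl, found in mural cells among others, was the lowest at 3.42 TPM in pup 1 and 3.44 TPM in pup 2. Exons of Gm20421, on the opposite strand and at 4.44 and 6.25 TPM, cover 31.8% of the Hes5 exon bases.

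RBPJ binds DNA at sites with the core TGGGAA, so promoter windows of the members were searched for these letters on both strands, with no other motif searched. The windows span 250 to 31 bases before the start of each RefSeq gene (220 bases, GRCm38.p6), and 29 of the 34 members had an entry, with 37 windows. A match was present in 9 of the 37 windows (24.3%), against 19.4% of 32851 windows of all genes. The windows of Rbpj overlap and share a match, which counts in each of them. The 8 members with a match were Lfng, Psen2, Psenen, Maml2, Maml3, Rbpj, Hes5 and Hey2. At least 2 matches were present in 3 of the 37 member windows, of Lfng, Rbpj and Hes5, against 2.19% of all windows. The windows of Hes5 (chr4:154960673-154960892) and Lfng (chr5:140607091-140607310), both on the plus strand, are shown as those of the highest target and of a Fringe enzyme with matches on each strand. Annotated exon bases of Gm20421 fall within the Hes5 window, and none fall within that of Lfng. Capitals mark TGGGAA or its reverse complement TTCCCA, and a match is a description of letters, not of binding.
Hes5 window: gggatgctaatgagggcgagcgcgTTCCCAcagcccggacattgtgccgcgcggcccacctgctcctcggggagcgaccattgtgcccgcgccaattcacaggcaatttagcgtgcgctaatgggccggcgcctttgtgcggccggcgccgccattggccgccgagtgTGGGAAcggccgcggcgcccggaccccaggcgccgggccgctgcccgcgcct
Lfng window: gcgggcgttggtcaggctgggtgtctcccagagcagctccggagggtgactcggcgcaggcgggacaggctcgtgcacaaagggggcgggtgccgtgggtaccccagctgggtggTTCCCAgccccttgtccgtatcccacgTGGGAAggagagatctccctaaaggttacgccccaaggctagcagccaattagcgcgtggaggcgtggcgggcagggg

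The Hes5 matches lie 226 to 221 and 82 to 77 bases before the start, and those of Lfng 135 to 130 and 108 to 103 bases before it. Transcript levels at these promoters differed widely, at 102 ± 9.65 TPM for Hes5 and 15.6 ± 3.26 TPM for Lfng.

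The pups were compared by the log2 ratio of scaled counts, pup 2 minus pup 1, with a counting interval that covers counting error only. The median over the 34 members was -0.0045, beside 0.00019 over 18105 genes. No member passed 2-fold, beside 64 of the 13545 genes that average 100 counts or more (0.472%). The interval lay below 0 for 9 of 34 members, where 21.3% of those genes did so, and above 0 for 8 of 34, where 22.5% did so. When spike-in totals (335 and 603 counts) set the scale instead, these numbers of members became 27 and 0, because that scale shifts every log2 ratio by -0.29. The shift has a counting error of its own, which the intervals leave out. Thus which members were higher or lower in pup 2 holds relative to the other genes only. The median size of the log2 ratio was 0.15 for members and 0.11 for genes at that count.

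**Figure D4:**
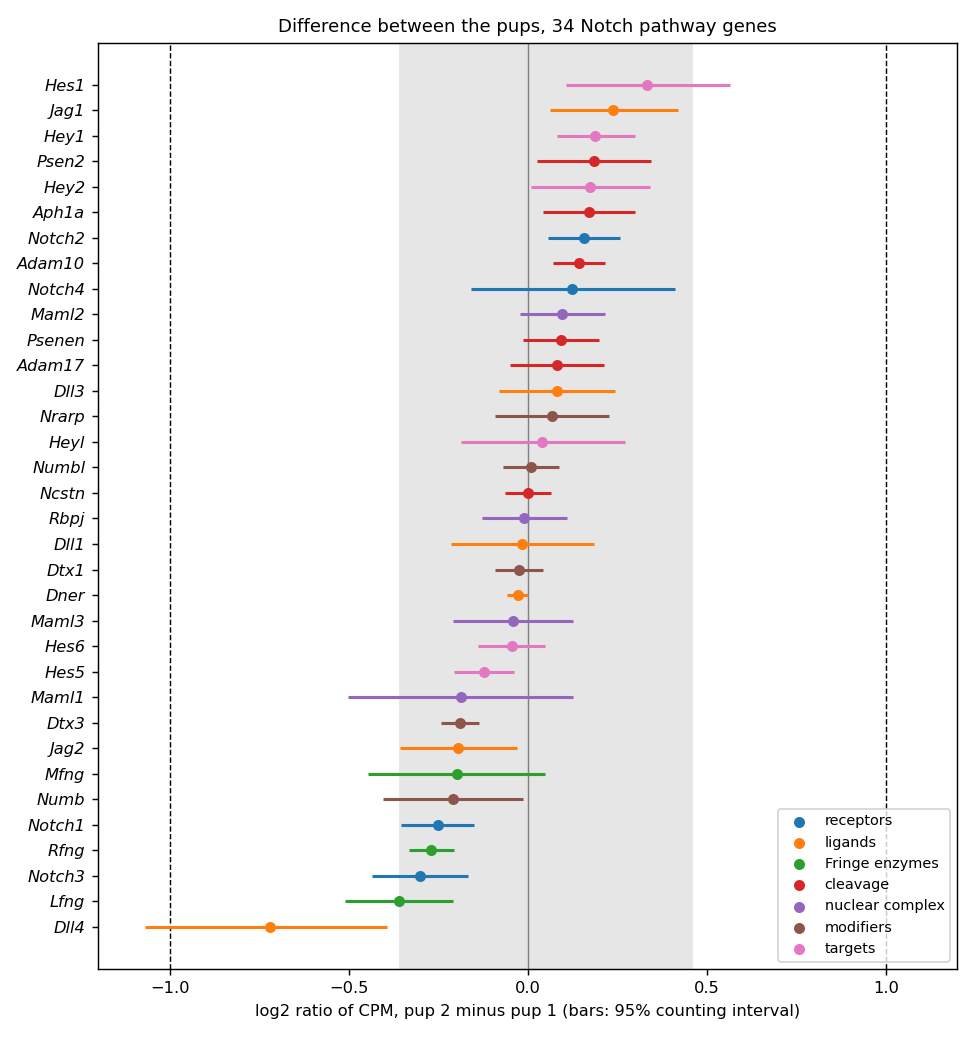
Log2 ratio of scaled counts, pup 2 minus pup 1, for each member, with the 95% counting interval as a bar, the central 95% of genes averaging 100 counts or more as a grey band (-0.36 to 0.46) and dashed lines at 2-fold. Dll4 at -0.72 and Lfng at -0.36 lie outside the band and the other members inside it, on the scale set by all genes.

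The lowest ratio was that of Dll4 (chromosome 2, 119325784 to 119335962, plus strand), with 158 counts in pup 1 and 140 in pup 2 at a log2 ratio of -0.72 (95% counting interval -1.07 to -0.39). Lfng followed with -0.36 (95% counting interval -0.51 to -0.21), and Notch3 with -0.30 (95% counting interval -0.43 to -0.17). On the spike-in scale, which lowers every gene by the same amount and so says nothing further of their direction, the values were -1.01 for Dll4, -0.65 for Lfng and -0.59 for Notch3. Endothelial markers, of which 10 of 10 were detected and none was at 0, summed to 231 TPM in pup 1 and 193 TPM in pup 2. Cldn5 alone gave 130 and 103 TPM. On the scale set by all genes, endothelial log2 ratios ran from -0.90 (Erg) to 0.076 with a median of -0.15. They were above 0 for Flt1, Cdh5 and Emcn. Mural cell markers, 7 of 8 detected and none at 0, summed to 51.9 and 41.2 TPM. Mural log2 ratios ran from -0.49 to 0.29 with a median of -0.28, and were above 0 for Anpep and Myh11. The part of either list in the ratios of Dll4 and Notch3 was not tested. In bulk tissue, fewer cells of a type and less RNA per cell cannot be told apart.

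The highest ratios were those of Hes1, at 0.33 (95% counting interval 0.11 to 0.57), Jag1, at 0.24 (95% counting interval 0.061 to 0.42), and Hey1, at 0.19 (95% counting interval 0.081 to 0.30). These directions depended on the scale: with spike-in totals the values were 0.042 for Hes1, -0.053 for Jag1 and -0.10 for Hey1. The highest member, Dner, differed little, at -0.028 (95% counting interval -0.058 to 0.0015). Hes5, the highest target, had -0.12 (95% counting interval -0.21 to -0.039), opposite in sign to Hes1 on the scale set by all genes. Markers of progenitors and radial glia, all 7 detected and none at 0, summed to 2835 TPM in pup 1 and 2689 TPM in pup 2, of which Fabp7 alone gave 2259 and 2129 TPM. Their log2 ratios ran from -0.15 to 0.38 with a median of -0.062, and their part in these ratios was not tested. Within the Fringe enzymes Rfng was lower in pup 2 at -0.27 (95% counting interval -0.33 to -0.21), while the interval of Mfng spanned 0 at -0.20 (95% counting interval -0.45 to 0.048).

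The other members lay between these extremes, and all of their signs are those on the scale set by all genes, since with spike-in totals no counting interval lay above 0. Among receptors and ligands, Notch1 had a log2 ratio of -0.25 (95% counting interval -0.35 to -0.15), Notch2 0.16 (95% counting interval 0.057 to 0.26) and Jag2 -0.19 (95% counting interval -0.36 to -0.03). Notch1 and Notch2 thus differed in sign, while the intervals of Notch4, Dll1 and Dll3 spanned 0. In the cleavage machinery the interval lay above 0 for Adam10 at 0.14, Psen2 at 0.18 and Aph1a at 0.17, and below 0 for none. Adam17 at 0.082, Ncstn at 0.00094 and Psenen at 0.093 had intervals that spanned 0. The nuclear complex showed no interval apart from 0, with Rbpj at -0.01, Maml1 at -0.19, Maml2 at 0.097 and Maml3 at -0.041. Of the modifiers, Dtx3 was lower in pup 2 at -0.19 (95% counting interval -0.24 to -0.14) and Numb at -0.21 (95% counting interval -0.40 to -0.012), whereas Numbl at 0.0087, Nrarp at 0.067 and Dtx1 at -0.023 were not apart from 0. Hey2 had 0.17 (95% counting interval 0.0084 to 0.34), while Hes6 at -0.045 and Heyl at 0.041 had intervals that spanned 0.

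Of 36 further genes of the pathway, 33 were detected, with a median level of 17.9 TPM. The highest were Nedd4, a ubiquitin ligase, at 249.7 TPM in pup 1 and 265 TPM in pup 2, Ctbp1, a corepressor, at 258 TPM in pup 1 and 230.0 TPM in pup 2, and Ncor1, a nuclear receptor corepressor, at 124 TPM in pup 1 and 125 TPM in pup 2. Nedd4 was thus close to Dner, while the corepressors stood above Rbpj, which was at 10.3 ± 0.396 TPM. The lowest was Hes2, at 0.11 TPM in pup 1 and 0.07 TPM in pup 2. None of the 32 with a mean count of at least 100 passed 2-fold, and their median log2 ratio was -0.046 over the 35 with a mean count of at least 10.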

How the data were processed

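Libraries of total RNA from the neural tubes of both litter mates were treated as a single group (n = 2). Per the file headers, the authors' deposited gene and transcript tables hold expected counts (estimated reads that need not be whole), TPM (length-corrected abundance, scaled within a library with every row included), posterior mean TPM with interval bounds, and, for transcripts, the percent of the gene's TPM. The build is mm10, per the labels. The aligner, the counter and the strandedness were not given in the sources used here. Among the members, 10 had fractional counts and 16 share exon bases with another gene; whether the overlap gave the fractions was not tested, and Rbpj had fractional counts without a shared exon.

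Symbols, transcript types and coordinates came from GENCODE M21 (GRCm38) by gene or transcript ID without version. Of 142 member transcripts, 1 was absent there and 12 had another length. Promoter sequences came from the RefSeq table. Rows for 26248 tRNAs and 96 spike-ins were left out of scaling.

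Expected counts were rounded. TMM factors (edgeR 4.0.16, R 4.3.3) used genes averaging 10 counts or more, log2 ratios of CPM a prior count of 2, and the 2-fold rule an average of 100 or more. Counting intervals are exact (Clopper-Pearson, 95%), and reads without molecular identifiers make them too narrow. DESeq2 1.42.0 size factors, library totals and spike-in totals were alternatives, with other detection limits, prior counts, filters, posterior means and each pup left out. Other steps used Python 3.11.15. The TMM scaling, the log2 ratios and the counting intervals were tested on simulated data, while the isoform, overlap and promoter steps were not.

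All 34 members are named. Of the related and proneural lists, the 3 highest, the lowest, and any member detected in exactly 1 pup or past 2-fold are named, except for an item not reported here. For log2 ratios the 3 highest and 3 lowest members are named, with others chosen after their values were seen. For isoforms the rule takes Numb in full and members whose leading transcript differs between the pups or is not coding, and other isoforms were chosen after their values were seen. Members and lists were chosen with earlier results of these data known.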

Additional observations from a re-analysis of the deposited data

How the results depend on the processing

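No paired analysis was possible because there is only 1 group. All 34 members were detected at a TPM of at least 0.5 and 32 at a TPM of at least 2. The members' median of 11.8 TPM became 12.7 TPM when TPM was computed over nuclear genes only, and lay between 11.4 and 12.4 TPM with either pup left out. With spike-in totals (335 and 603 counts) as the scale, 1 member, Dll4, passed 2-fold, the median log2 ratio was -0.30, and counting intervals lay below 0 for 27 members and above 0 for 0; the median was -0.022 with library totals. DESeq2 size factors, a prior count of 0.5 and other count filters left no member past 2-fold. The scalings for the counting intervals, and levels over coding transcripts only, were added after seeing the data. Coding transcripts alone moved Notch4 from 4.39 to 1.28 TPM, Dll3 from 17.4 to 10.3, Numb from 9.32 to 5.66 and Dtx1 from 51.0 to 31.7, over 1.5 times each. The ratio of Notch1 to Notch2 was 0.93 with counts not divided by length, and ran from 0.961 to 1.23 with either pup left out; that of Psenen to Ncstn was 0.380 with counts, and that of Notch3 to Notch4 was 0.878 by posterior mean. The cause of these shifts was not tested, apart from length, which counts keep. Depth limits Dll4, Maml1 and Notch4 most, as the lowest member counts were 152 and 140.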

Other observations

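Proneural transcription factors are bHLH proteins that drive neuronal commitment and that Hes repressors oppose. Neurod1, expressed in maturing neurons, was at 6.22 TPM in pup 1 and 5.61 TPM in pup 2. Neurog2 was at 0.6 TPM in pup 1 and 0.55 TPM in pup 2, and Neurog1 had 0 counts in both pups, which allows up to 3 counts. Neurod1 was below Hes5, at 102 ± 9.65 TPM, and Hes6, at 69.8 ± 3.65 TPM. In 6 sensory ganglion genes, 5 passed 2-fold, all higher in pup 2. None of the 34 Notch members did, beside 0.472% of all genes that average 100 counts or more.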
